A study of Mus musculus with 161 samples.

Results

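M1 → M2 macrophages were set against M2 macrophages, both sampled 12 h after IL-4 was added, to ask how far cells that had first been made inflammatory answered IL-4 like cells that had never been stimulated. The comparison held 6 bulk RNA-seq libraries, 3 per group, chosen by their labels from the 145 bulk libraries among the 161 samples of the series. All cells were bone marrow-derived macrophages (BMDMs), that is bone marrow cells of C57BL/6J mice aged 6 to 10 weeks that were grown into macrophages with the growth factor M-CSF (20 ng/mL). On day 7 the M1 → M2 cultures received LPS (100 ng/mL) together with IFN-γ (25 ng/mL) for 24 h, were washed with PBS and then received IL-4 (25 ng/mL) for 12 h. The M2 cultures received the same dose of IL-4 on day 7 for 12 h, with no stimulus before it. The M1 → M2 cells were thus harvested 36 h after day 7 and the M2 cells 12 h after it, so that the inflammatory pretreatment, the added day in culture and the wash cannot be told apart. Each group had a control of its own, and these controls were 12 h M1 → M0 cells (pretreated and washed in the same way, then kept in base medium for 12 h) and 0 h M0 cells (untreated on day 7). Untreated cells of the 12 h time point were not analysed here, and 24 h M0 cells served as a second control for the M2 cells. The labels call the replicates biological but do not say how many mice stood behind each one. The p-values measure the spread between replicate libraries within groups, shared over all 145 bulk libraries.

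IL-4 binds a receptor made of IL-4Rα and the common γ chain, whose kinases JAK1 and JAK3 phosphorylate the transcription factor STAT6. In macrophages STAT6 switches on genes such as Arg1, Retnla, Chi3l3 and Mrc1, the classical marks of the alternative (M2) state. LPS acts through TLR4 and NF-κB, and together with IFN-γ it drives the classical (M1) state with interferon-stimulated genes, chemokines and inducible nitric oxide synthase. SOCS1, an inhibitor of Janus kinases, is induced by both kinds of signal.

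The promoters of 5 genes are shown to set motif and response side by side. They were picked by hand and each holds the motif marked, so they do not show how common it is. Retnla and Ccl17 are IL-4 genes that were lower in M1 → M2 cells, Pdcd1lg2 is one that was slightly higher in the values as deposited, Socs1 responds to both kinds of signal, and Gbp2 is an interferon-induced gene among those with the largest increases. Each runs from 250 bases before to 50 bases after the RefSeq transcription start (GRCm38.p6), 5′ to 3′ on the gene's own strand. In the promoters of Retnla (chr16:48842359-48842658, + strand), Ccl17 (chr8:94810203-94810502, + strand) and Pdcd1lg2 (chr19:29410669-29410968, + strand) the capitals mark a match to the STAT6 motif (TTC, any 4 bases, GAA), which began at -145, -154 and -82 from the start. In those of Socs1 (chr16:10785487-10785786, - strand) and Gbp2 (chr3:142620413-142620712, + strand) the capitals mark the interferon-stimulated response element (GAAA, any 2 bases, GAAA). Socs1 held overlapping copies at -83 and -77, and Gbp2 held a copy on the opposite strand at -59.
Retnla: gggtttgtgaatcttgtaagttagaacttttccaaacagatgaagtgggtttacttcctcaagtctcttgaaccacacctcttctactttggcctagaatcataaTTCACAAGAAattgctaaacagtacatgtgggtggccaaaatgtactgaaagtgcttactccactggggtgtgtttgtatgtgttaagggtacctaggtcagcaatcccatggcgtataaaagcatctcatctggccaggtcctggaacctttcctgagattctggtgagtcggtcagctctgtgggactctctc
Ccl17: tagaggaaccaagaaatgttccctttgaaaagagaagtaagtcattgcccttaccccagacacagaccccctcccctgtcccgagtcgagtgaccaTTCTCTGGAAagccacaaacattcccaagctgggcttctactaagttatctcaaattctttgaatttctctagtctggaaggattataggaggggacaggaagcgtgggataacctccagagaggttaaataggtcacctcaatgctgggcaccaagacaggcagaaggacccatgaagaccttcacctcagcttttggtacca
Pdcd1lg2: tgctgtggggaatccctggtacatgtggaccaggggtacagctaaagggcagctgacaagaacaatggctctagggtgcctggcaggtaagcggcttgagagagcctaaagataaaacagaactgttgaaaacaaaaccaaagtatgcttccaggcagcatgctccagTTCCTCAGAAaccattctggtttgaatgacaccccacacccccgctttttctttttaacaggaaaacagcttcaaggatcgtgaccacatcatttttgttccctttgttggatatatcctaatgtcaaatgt
Socs1: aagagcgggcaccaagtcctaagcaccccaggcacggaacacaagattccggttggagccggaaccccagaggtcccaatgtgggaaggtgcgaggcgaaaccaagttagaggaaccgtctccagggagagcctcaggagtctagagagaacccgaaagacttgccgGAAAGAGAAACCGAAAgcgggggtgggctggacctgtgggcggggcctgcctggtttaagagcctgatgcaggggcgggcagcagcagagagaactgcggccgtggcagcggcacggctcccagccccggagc
Gbp2: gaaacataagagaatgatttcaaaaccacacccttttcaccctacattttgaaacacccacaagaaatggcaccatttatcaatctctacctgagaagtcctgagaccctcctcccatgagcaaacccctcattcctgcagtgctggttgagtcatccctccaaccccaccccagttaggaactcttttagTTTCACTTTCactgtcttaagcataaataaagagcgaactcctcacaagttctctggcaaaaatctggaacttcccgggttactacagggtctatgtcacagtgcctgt

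These motifs were searched on both strands in the 6477 promoters that could be matched to the 8307 measured genes. The STAT6 motif was present in 440 of them (6.79%) and the interferon element in 289 (4.46%). Among promoters of genes called at least 2-fold higher in M1 → M2 cells the interferon element was present in 73 of 558 (13.1%), and among those called at least 2-fold lower in 26 of 528 (4.92%). The STAT6 motif was present in 45 (8.07%) and 46 (8.71%) of the same promoters. Among genes that 24 h of IL-4 raised at least 2-fold over 24 h M0, it was present in 25 of 240 matched promoters (10.4%). The related STAT motif with 3 bases between TTC and GAA was present in 56 (10.0%) of the higher and 39 (7.39%) of the lower set, against 526 of all promoters (8.12%), and an NF-κB motif (GGGA, any 4 bases, CC) in 177 (31.7%), 158 (29.9%) and 1947 (30.1%). A match is a description of the letters only.

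Values were FPKM, which carry no read counts, so the depth of each library is unknown and no counting interval could be set. The summed FPKM of the 8307 genes was 424898 to 449748 in M1 → M2 libraries and 395625 to 426574 in M2 libraries. Across genes, the correlation of log2(FPKM + 1) was 0.819 to 0.842 between libraries of different groups, against 0.960 to 0.984 within the M1 → M2 group and 0.977 to 0.991 within the M2 group. Genes are not independent replicates, and these values are descriptions. Replicate 2 of the M1 → M2 group listed 8 abundant genes at exactly 0, among them Psap (7167, 0 and 7272 FPKM), Fth1 (19294, 0 and 18834 FPKM), Ctsb (2593, 0 and 3161 FPKM) and H2-D1 (1680, 0 and 1651 FPKM), and also Fdft1, Gpnmb and Ftl1. In M2 libraries 1 gene, mt-Te, did so. Such zeros can be failed estimates, and these genes are given below with and without them.

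M1 → M2 and M2 macrophages differed in most of the genes measured. With limma on log2(FPKM + 1), 4642 of 8307 genes (55.9%) were called at a Benjamini-Hochberg adjusted p below 0.05, 2811 of them higher (33.8%) and 1831 lower (22%) in M1 → M2 cells. The libraries of both groups did not overlap in 5380 genes (64.8%). Most differences were small, since 3168 of the called genes (68.3%) differed by less than 2-fold, which left 730 genes (8.79%) at least 2-fold higher and 744 (8.96%) at least 2-fold lower. The split depended on the scaling, since the median gene stood 0.13 higher on the log2 scale, and 60.6% of calls were higher as deposited, against 50.3% after quantile normalisation (2340 higher and 2308 lower) and 47.95% after centring each library (2195 higher and 2383 lower). Below, each fold change is the log2 ratio of FPKM + 1, M1 → M2 over M2, with its standard error (SE) and the adjusted p from limma. Counts within gene lists are to be read beside the shares over all genes, 33.8% higher and 22% lower.

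The Jensen-Shannon distance of log10(FPKM + 1) profiles, in which 0 means identical, placed the M1 → M2 cells nearer to other pretreated cells than to M2 cells. The distance of M1 → M2 libraries was 0.0598 ± 0.00543 to the mean 12 h M1 → M0 profile, 0.0917 ± 0.00482 to 24 h M1 and 0.118 ± 0.00165 to 12 h M2 (SD, n = 3). It was 0.123 ± 0.0018 to 0 h M0. Single libraries of different groups lay 0.118 to 0.125 apart, against 0.039 to 0.0543 within the M1 → M2 group and 0.0299 to 0.0459 within the M2 group, so no pair within a group was as far apart as any pair between them.

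The genes with the largest differences were interferon and inflammatory genes on the higher side and IL-4 genes, cell cycle genes and markers of other bone marrow cells on the lower side. By the rule for named genes (mean of at least 20 FPKM in 1 group, libraries not overlapping, largest log2 fold change), the 15 higher genes were Ccl5 (10.13), Cxcl9 (7.84), Ly6a (7.84), Saa3 (7.81), Irf7 (7.39), AW112010 (7.06), Ms4a4c (7.01), Gbp2 (6.46), Cfb (6.39), Il18bp (6.06), H2-Q6 (5.23), Mx1 (5.15), Gbp4 (5.1), Rsad2 (5.09) and AA467197 (5.07). The 15 lower genes were Retnla (-7.24), S100a9 (listed at 0 in every M1 → M2 library), Fcrls (-5.3), Fn1 (-5.22), Mgl2 (-4.28), D17H6S56E-5 (-4.31), Il1rl1 (-4.26), Top2a (-4.26), Rrm2 (-4.21), Ighm (-4.18), Uhrf1 (-4.02), Birc5 (-4.02), Tk1 (-4.01), Ear11 (-3.91) and Cdca3 (-3.75). Ly6a encodes the surface antigen Sca-1, Il18bp a soluble trap for the cytokine IL-18, and Cfb complement factor B. Il1rl1 encodes the receptor for IL-33. Of the lower genes, Retnla, Fcrls, Fn1, Mgl2, Il1rl1 and Ear11 were raised at least 2-fold by 24 h of IL-4 over 24 h M0. Of the higher genes, AA467197 was raised in that way.

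Transcripts of both chains of the IL-4 receptor were more abundant in M1 → M2 cells. Of 14 measured genes of IL-4 receptor signalling, 6 were higher, 1 was lower and 7 did not pass the test. Over all genes 33.8% were higher and 22% lower. The median log2 fold change of the 14 was 0.34, against 0.13 over all genes. Il4ra, the receptor's specific chain, had 78.1, 93.3 and 77.7 FPKM in M1 → M2 libraries, against 10.4, 15.8 and 15.2 FPKM in M2 libraries (log2 fold change 2.52 ± 0.27, adjusted p = 8.62e-14). Il2rg, the common γ chain, had 244, 259.5 and 264 FPKM, against 73.3, 55.8 and 55.7 FPKM (log2 fold change 2.05 ± 0.2, adjusted p = 2.06e-15). The groups did not overlap for either chain. Stat6 itself had 93.4, 94.9 and 83.5 FPKM in M1 → M2 libraries and 57.8, 58.2 and 64.6 FPKM in M2 libraries (log2 fold change 0.58 ± 0.1, adjusted p = 2.45e-07), and Jak1 had 88.2, 88.8 and 77.8 FPKM and 59.7, 52.3 and 59.5 FPKM (log2 fold change 0.56 ± 0.12, adjusted p = 5.07e-05). Both were higher by less than 2-fold with no overlap. Il13ra1, which pairs with IL-4Rα in the second type of IL-4 receptor, was low in both groups (4.27, 2.04 and 1.69 FPKM in M1 → M2 libraries and 0.951, 0.568 and 0.432 FPKM in M2 libraries, log2 fold change 1.1 ± 0.34), and without M1 → M2 replicate 1 it did not pass (0.81, adjusted p = 0.0677). Jak3 did not pass the test (6.99, 9.52 and 7.99 FPKM in M1 → M2 libraries, 5.11, 5.91 and 6.88 FPKM in M2 libraries, adjusted p = 0.063).

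The single lower member was Socs2, a STAT-induced feedback inhibitor of cytokine receptors, with 1.17, 2.72 and 2.74 FPKM in M1 → M2 libraries, against 15, 17.8 and 13 FPKM in M2 libraries (log2 fold change -2.37 ± 0.25, adjusted p = 1.88e-14). Other inhibitors went the opposite way. Socs1 had 149, 165 and 171 FPKM in M1 → M2 libraries, against 23.4, 33.6 and 31 FPKM in M2 libraries (log2 fold change 2.43 ± 0.38, adjusted p = 4.11e-08). Its level was 4.96 ± 2.82 FPKM in 12 h M1 → M0 cells (SD, n = 3), against 131, 194 and 187 FPKM in 24 h M1 libraries, so that 12 h after the wash Socs1 was high with IL-4 and low without it. Socs3 had 5.89, 4.71 and 4.27 FPKM in M1 → M2 libraries and 0.545, 0.83 and 0.54 FPKM in M2 libraries (log2 fold change 1.86 ± 0.3), without overlap. Of 18 measured genes of negative feedback on cytokine and TLR signalling, 8 were higher and 1 lower (median 0.75), against 33.8% higher over all genes. Cd274, which encodes the immune checkpoint ligand PD-L1, had the largest fold change among the 8, with 367, 307 and 276 FPKM in M1 → M2 libraries, against 22.1, 20.9 and 20.7 FPKM in M2 libraries (log2 fold change 3.83 ± 0.3, adjusted p = 1.12e-20). Dusp1, a phosphatase of MAP kinases, was higher (2.06 ± 0.39) and Dusp2 lower (-0.93 ± 0.33), and the call for Dusp2 was lost after quantile normalisation (adjusted p = 0.0771).

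Some classical IL-4 genes were far lower in M1 → M2 than in M2 cells, some were not called and some were higher. Among 14 measured secreted proteins and enzymes induced by IL-4, 8 were lower and 2 higher in M1 → M2 cells, with a median of -2.24. Retnla, a secreted resistin-like protein, had 71.7, 3.93 and 2.71 FPKM in M1 → M2 libraries, against 1489, 1794 and 1736 FPKM in M2 libraries (log2 fold change -7.24 ± 0.66, adjusted p = 2.67e-17). All M1 → M2 libraries lay far below the M2 libraries, with replicate 1 the highest of them. Ear11, an eosinophil-associated ribonuclease, had 4.34, 0.348 and 1.12 FPKM, against 51.4, 30.2 and 30.4 FPKM in M2 libraries (log2 fold change -3.91 ± 0.35, adjusted p = 1.25e-17). Il4i1, an L-amino acid oxidase, had 1.83, 1.26 and 1.11 FPKM in M1 → M2 libraries and 38.7, 18 and 21.7 FPKM in M2 libraries (log2 fold change -3.44 ± 0.52). Replicate 1 of the M2 group was highest for both, and neither gene's groups overlapped. The chemokines Ccl24, Ccl22 and Ccl17 were lower as well. Ccl24, a ligand of CCR3, had 2.49, 2.9 and 4.13 FPKM in M1 → M2 libraries, against 49.8, 27.6 and 26.4 FPKM in M2 libraries (log2 fold change -3.05 ± 0.46, adjusted p = 1.74e-08). Ccl22, a ligand of CCR4, had 0.831, 0.428 and 1.28 FPKM in M1 → M2 libraries, against 23.5, 10.2 and 7.67 FPKM in M2 libraries (log2 fold change -2.88 ± 0.55). Ccl17, which shares that receptor, was listed at 0 in M1 → M2 replicates 2 and 3 and at 0.0854 FPKM in replicate 1, against 4.13, 1.55 and 1.27 FPKM in M2 libraries.

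Chi3l3 and Arg1 behaved otherwise. Chi3l3, the chitinase-like protein Ym1, had 638, 431 and 338 FPKM in M1 → M2 libraries and 416, 609 and 480.3 FPKM in M2 libraries (log2 fold change -0.13 ± 0.41, adjusted p = 0.803). Arg1, arginase 1, had 1958, 1799 and 1706 FPKM in M1 → M2 libraries and 1906, 2742 and 2675 FPKM in M2 libraries (log2 fold change -0.41 ± 0.54, adjusted p = 0.535). The libraries of both groups overlapped for each gene, and neither p passed, which does not show that the levels were equal. Tgm2, a transglutaminase, was the member with the largest positive change, with 257, 326 and 283 FPKM in M1 → M2 libraries, against 74.7, 69.2 and 81.8 FPKM in M2 libraries (log2 fold change 1.92 ± 0.25, adjusted p = 1.86e-10). Il1rn, the IL-1 receptor antagonist, was the other higher member (110.1, 160.3 and 172 FPKM in M1 → M2 libraries and 34.8, 39.9 and 49.2 FPKM in M2 libraries, log2 fold change 1.8 ± 0.38). In these libraries Il1rn was not raised by IL-4, since its IL-4 effect in naive cells, 12 h M2 over 0 h M0, was -1.34 on the log2 scale (adjusted p = 0.00291), the single negative call among the 14.

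**Figure D1:**
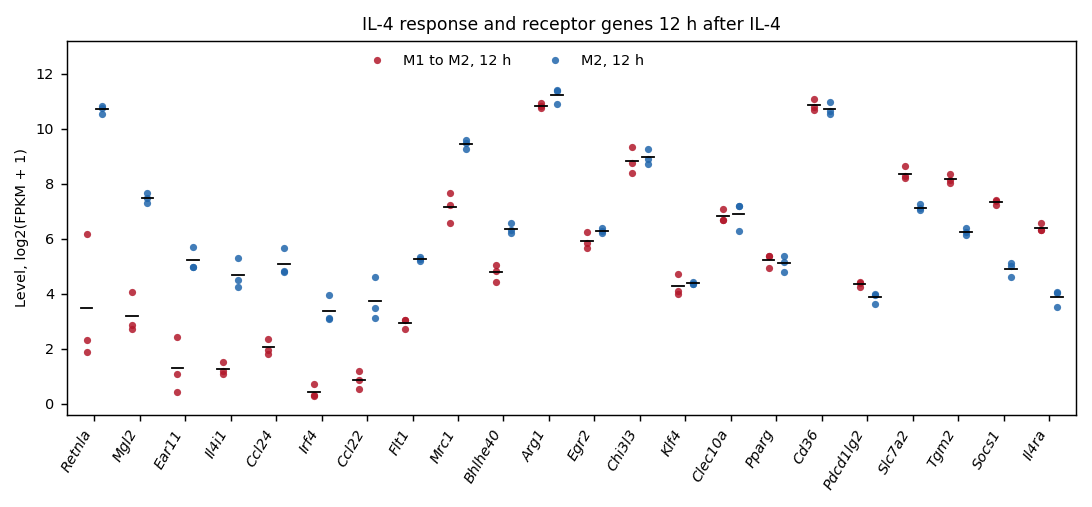
Expression of 22 IL-4 response and receptor genes 12 h after IL-4, as log2(FPKM + 1) on the vertical axis, with a dot per library and a bar for the mean of 3 libraries, M1 → M2 to the left of M2 for each gene. Retnla, Mgl2 and Ear11 show wide gaps with M1 → M2 low, the dots of Chi3l3, Arg1 and Egr2 overlap, and Slc7a2, Tgm2, Socs1 and Il4ra show M1 → M2 high.

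Surface proteins and transporters induced by IL-4 divided in the same manner, with 10 of 17 lower, 3 higher and a median of -1.74. Mgl2, a galactose-binding lectin, had 15.6, 6.2 and 5.48 FPKM in M1 → M2 libraries, against 203, 156 and 176 FPKM in M2 libraries (log2 fold change -4.28 ± 0.29, adjusted p = 1.1e-24). Mrc1, the mannose receptor CD206, had 94.5, 201 and 150.2 FPKM in M1 → M2 libraries, against 608, 768 and 711 FPKM in M2 libraries (log2 fold change -2.28 ± 0.48, adjusted p = 2.43e-05). Flt1, a receptor for vascular endothelial growth factor, had 7.26, 7.19 and 5.57 FPKM in M1 → M2 libraries and 39.3, 37.5 and 35.7 FPKM in M2 libraries (log2 fold change -2.33 ± 0.29). No library of one group reached the other for these genes. Dcstamp (-2.41 ± 0.45) and Ocstamp (-2.79 ± 0.26), both needed for macrophage fusion, and Tfrc (-2.00 ± 0.34), the transferrin receptor, were lower too. Slc7a2, which carries arginine into the cell, was higher in M1 → M2 cells, with 396, 308 and 292 FPKM, against 129, 150.5 and 137 FPKM in M2 libraries (log2 fold change 1.24 ± 0.36, adjusted p = 0.00223). Pdcd1lg2, the checkpoint ligand PD-L2 whose promoter is printed above, had 17.9, 20.4 and 19.9 FPKM in M1 → M2 libraries and 11.4, 14.9 and 14.5 FPKM in M2 libraries (log2 fold change 0.49 ± 0.19, adjusted p = 0.0217), and Clec7a, the fungal glucan receptor Dectin-1, had 947, 586 and 578 FPKM and 568, 360.3 and 337 FPKM (adjusted p = 0.0435). These small increases did not hold under every scaling, since Pdcd1lg2 had an adjusted p of 0.101 after quantile normalisation and Clec7a one of 0.129 after centring.

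Of 13 measured transcription factors induced by IL-4, 4 were lower and 2 higher, against 22% lower and 33.8% higher over all genes. Their median was 0.12 as deposited but -0.03 after quantile normalisation. Irf4, which directs part of the M2 programme, had 0.638, 0.243 and 0.221 FPKM in M1 → M2 libraries, against 14.6, 7.38 and 7.64 FPKM in M2 libraries (log2 fold change -2.94 ± 0.43, adjusted p = 5.21e-09). Bhlhe40 (-1.59 ± 0.36), Myc (-1.51 ± 0.29) and Batf3 (-1.33 ± 0.3) were the other lower factors. Egr2, a zinc finger factor that IL-4 induces, had 74.2, 55.8 and 49.9 FPKM in M1 → M2 libraries and 82.2, 72.6 and 76.1 FPKM in M2 libraries (adjusted p = 0.408). Pparg, a lipid-activated nuclear receptor, had 29.7, 40.4 and 40.1 FPKM and 26.7, 34.6 and 39.97 FPKM (adjusted p = 0.794), and Klf4 had 25.1, 15 and 15.9 FPKM and 19.6, 20.7 and 19.6 FPKM (adjusted p = 0.778). The groups overlapped for Egr2, Pparg and Klf4. Arid5a (1.46 ± 0.29), an RNA-binding protein that stabilises cytokine mRNAs, and Bcl6 (0.75 ± 0.2), a transcriptional repressor, were higher. Neither was raised by IL-4 in naive cells, 12 h M2 over 0 h M0, where the log2 effect was -1.27 for Arid5a (adjusted p = 0.000179) and 0.28 for Bcl6 (adjusted p = 0.287). Of the 13 factors, which are named for IL-4 from earlier knowledge, 6 were higher and 3 lower in that contrast.

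The level of a gene after IL-4 depends on where it started, and each group was therefore also set against its own control. IL-4 changed 977 genes (11.8%) in pretreated cells, 12 h M1 → M2 over 12 h M1 → M0, of which 595 were higher (7.16%) and 382 lower (4.6%), and 3179 genes (38.3%) in naive cells, 12 h M2 over 0 h M0, of which 1730 were higher (20.8%) and 1449 lower (17.4%). The naive contrast holds 12 h of culture as well as IL-4, which the pretreated contrast, taken at 1 time, does not. In 791 genes (9.52%) the IL-4 effects themselves differed by limma's test of the difference, 408 with a higher (4.91%) and 383 with a lower (4.61%) effect in pretreated cells. With 24 h M0 as the naive control it was 1060 genes (12.8%), 525 higher (6.32%) and 535 lower (6.44%), of which 561 were among the 791. Replicates of the same number deviated together within each of these pairs of groups, and with the replicate number as a block 1508 genes were called.

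For Arg1 the end levels overlapped while the IL-4 effects differed. Arg1 averaged 49.7 ± 13.1 FPKM in 12 h M1 → M0 cells and 6.67 ± 2.59 FPKM in 0 h M0 cells (SD, n = 3). The log2 IL-4 effect was 5.19 in pretreated and 8.35 in naive cells, a difference of -3.16 ± 0.76, adjusted p = 0.00241. Chi3l3 showed the reverse, with 2.37, 0.898 and 0.664 FPKM in M1 → M0 libraries and 42.5, 101 and 94.3 FPKM in 0 h M0 libraries. Its IL-4 effect was 7.69 in pretreated and 2.73 in naive cells (difference 4.96 ± 0.57, adjusted p = 5.3e-11), but with 24 h M0 as the naive control the difference was 0.66 (adjusted p = 0.514). Mrc1 likewise started low in pretreated cells, at 3.72 ± 1.87 FPKM in M1 → M0 cells and 105 ± 9.25 FPKM in 0 h M0 cells, and its IL-4 effect was 5.01 and 2.71 (difference 2.3 ± 0.67, adjusted p = 0.0154). The call for Mrc1 was lost when single replicates were left out (adjusted p 0.0549 to 0.194 where lost). Egr2 had a larger IL-4 effect in pretreated cells too (4.00 and 1.78, difference 2.21), a call that was lost without replicate 2 (adjusted p = 0.0646). Mrc1 was thus lower in M1 → M2 than in M2 cells although IL-4 raised it from a lower start. Chi3l3 and Egr2, which also started lower than in 0 h M0 cells, overlapped with M2 libraries. Chi3l3 averaged 3.49 ± 2.82 FPKM in 24 h M0 cells (SD, n = 3), so its lower start was clear only against 0 h M0 cells. For Egr2, 1 of the 3 M1 → M2 libraries lay within the M2 range and the others below it.

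**Figure D2:**
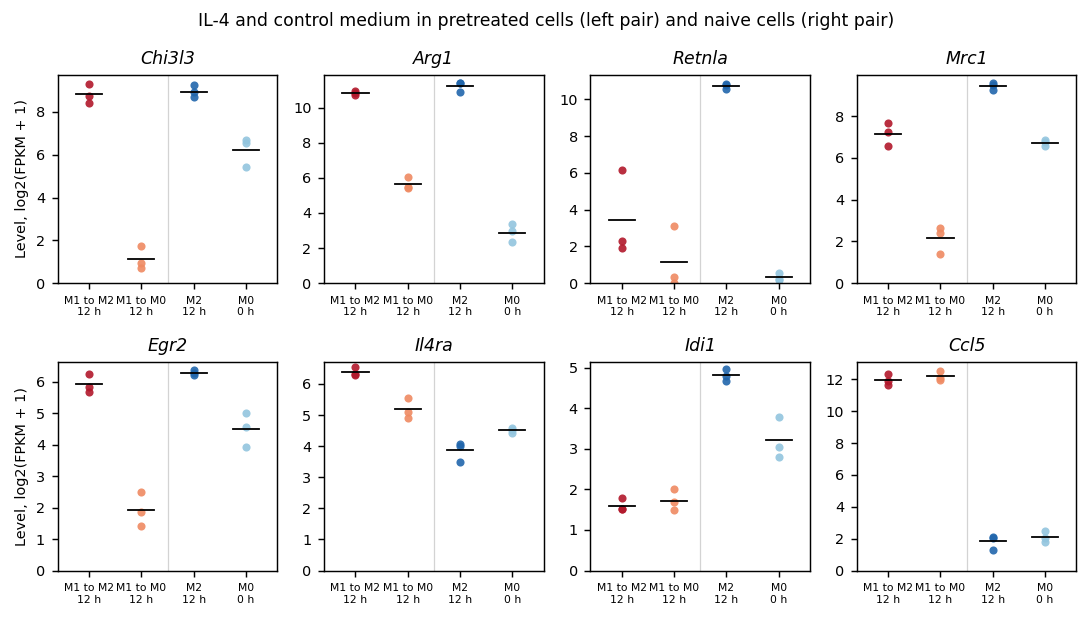
Expression of 8 genes in 4 groups, left to right 12 h M1 → M2, 12 h M1 → M0, 12 h M2 and 0 h M0, as log2(FPKM + 1) with a dot per library and a bar for the mean of 3 libraries. Chi3l3, Mrc1 and Egr2 start low in M1 → M0 and climb with IL-4, Retnla climbs less in pretreated than in naive cells, Idi1 is level in the pretreated groups and higher in M2 than in 0 h M0, and Ccl5 is high in both pretreated groups (4778 FPKM on average in M1 → M0).

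Retnla had the largest loss of IL-4 effect, with 2.32 in pretreated and 10.38 in naive cells (difference -8.06 ± 0.93, adjusted p = 5.6e-11). Its levels were 7.66, 0.245 and 0 FPKM in M1 → M0 libraries and 0.185, 0.134 and 0.472 FPKM in 0 h M0 libraries, so that both controls were low. The same held for Ear11 (difference -3.88 ± 0.5, adjusted p = 2.6e-09), Ccl24 (-3.87 ± 0.66, adjusted p = 8.44e-06), Mgl2 (-3.03 ± 0.41, adjusted p = 2.08e-08) and Il4i1 (-3.07). The difference also passed for Ccl22 (-2.75, adjusted p = 0.0118) and Irf4 (-2.24, adjusted p = 0.00783), both of which lost it when some single replicates were left out (adjusted p where lost 0.0514 to 0.193 for Ccl22 and 0.0538 to 0.0954 for Irf4). Flt1 kept an IL-4 effect of 2.66 in pretreated cells, smaller than the 4.76 in naive cells (difference -2.1, adjusted p = 0.00012). For other genes no difference was found. The IL-4 effect was 5.39 in pretreated and 5.55 in naive cells for Slc7a2 (adjusted p = 0.906), 2.42 and 2.62 for Tgm2 (adjusted p = 0.788), and 4.17 and 3.71 for Pdcd1lg2 (adjusted p = 0.293).

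Il4ra and Socs3 carried IL-4 effects of opposite sign. IL-4 raised Il4ra in pretreated cells by 1.2 (adjusted p = 0.000554), and in naive cells the value was -0.65 (adjusted p = 0.0496), a difference of 1.85 ± 0.39, adjusted p = 0.00036, which was lost without replicate 1 (adjusted p = 0.0569). Socs3 had effects of 0.91 and -1.2 (difference 2.11). Socs1 was raised strongly in both, by 4.89 in pretreated and 3.93 in naive cells, and the difference did not pass (0.96, adjusted p = 0.28). Of the chemokines that bind CCR2, Ccl2 (3.24 in pretreated and 1.54 in naive cells, difference 1.7, adjusted p = 0.0168) was raised more in pretreated cells over the 0 h control, but with 24 h M0 as the naive control the difference was 0.65 (adjusted p = 0.452). For Ccl7 (5.34 and 3.45) the difference did not pass (adjusted p = 0.0847).

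A wider set of IL-4 genes was defined from libraries outside the comparison, the 313 genes (3.77% of all) that 24 h of IL-4 raised at least 2-fold in naive cells over 24 h M0. Because the set was chosen in naive cells, genes that IL-4 raised only in pretreated cells could not enter it. Counts that set pretreated against naive cells therefore lean toward lower levels and smaller effects in pretreated cells, to an unknown extent. At 12 h, 143 of them (45.7%) were lower in M1 → M2 than in M2 cells, 65 were higher and 105 were not called, with a median of -0.38. IL-4 raised 175 of them (55.9%) in pretreated cells, where limma called none lower (1 at an unadjusted p below 0.05), and it raised 260 in naive cells and lowered 1. The IL-4 effects differed in 80 of the 313, with a smaller effect in pretreated cells for 65 and a larger one for 15. Over all genes the difference was negative for 383 and positive for 408. With 24 h M0 as the naive control, which helped define the set, the numbers were 101 and 13. Their level in M1 → M2 cells also went with what LPS and IFN-γ did to the same gene in 24 h M1 cells. Of the 50 that M1 stimulation lowered at least 2-fold, 39 were lower and 2 higher in M1 → M2 cells. Of the 77 that it raised, 5 were lower and 45 higher, and of the other 186, 99 were lower and 18 higher. Among 286 genes (3.44%) that 24 h of IL-4 lowered at least 2-fold in naive cells, 143 were higher and 41 lower in M1 → M2 cells (median 0.51). This set was chosen in naive cells as well, so the same limit holds for it.

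**Figure D3:**
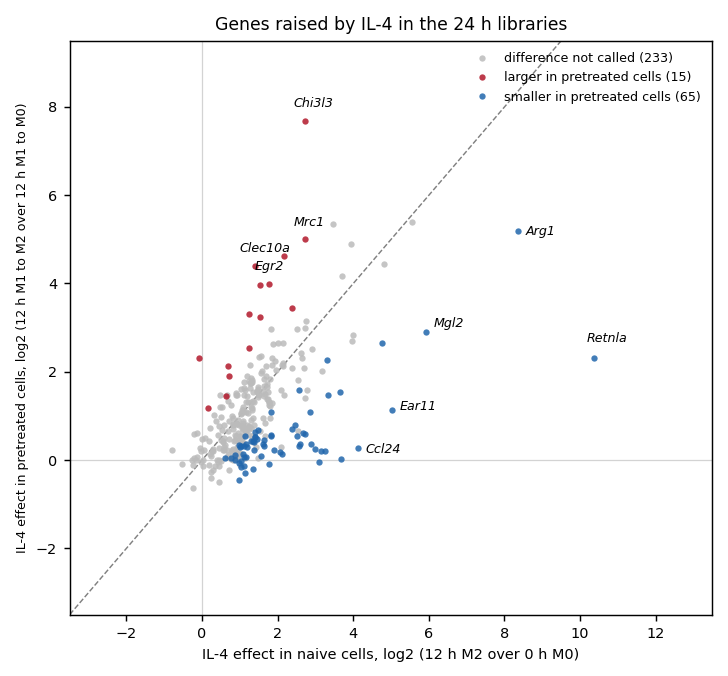
Log2 IL-4 effect of 313 genes raised by 24 h of IL-4, in naive cells on the horizontal axis (12 h M2 over 0 h M0) and in pretreated cells on the vertical axis (12 h M1 → M2 over 12 h M1 → M0), with a dashed line of equality. Dots are coloured by the test of the difference, 65 smaller in pretreated cells, 15 larger and 233 not called, and Retnla lies farthest below the line while Chi3l3 lies farthest above it. The genes were chosen in naive cells, which favours dots below the line.

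Most genes that the inflammatory stimulus raises were higher in M1 → M2 than in M2 cells 12 h into IL-4. Of 1075 genes (12.9%) that 24 h of LPS and IFN-γ raised at least 2-fold over 24 h M0, 816 (75.9%) were higher, 23 lower and 236 not called in M1 → M2 cells (median 0.95), and of the 863 (10.4%) that it lowered, 693 (80.3%) were lower and 22 higher (median -1.20), against 33.8% higher and 22% lower over all genes. All 31 measured interferon-stimulated genes were higher, with a median of 3.15, and their summed level was 2548 to 3185 FPKM in M1 → M2 libraries and 238.8 to 303.5 FPKM in M2 libraries. Irf7, a factor of type I interferon expression, had 708, 643 and 675 FPKM in M1 → M2 libraries, against 2.41, 3.6 and 3.14 FPKM in M2 libraries (log2 fold change 7.39 ± 0.22, adjusted p = 1.78e-52). Mx1, an antiviral GTPase, had 56.4, 78.7 and 106 FPKM, against 1.5, 0.833 and 1.38 FPKM in M2 libraries (log2 fold change 5.15 ± 0.3, adjusted p = 1.91e-29). Rsad2, the antiviral enzyme viperin (5.09 ± 0.36), Isg15, a ubiquitin-like modifier (4.6 ± 0.34), and Oas3, a sensor of double-stranded RNA (4.59 ± 0.24), followed. M1 → M2 and M1 → M0 cells differed in 2 of the 31, both higher with IL-4, against 11.8% of all genes. In naive cells, 12 h M2 over 0 h M0, 16 of the 31 were lower and 2 higher. The difference of these effects was called for 12 of the 31, all higher in pretreated cells. With 24 h M0 as the naive control it was called for 14, again all higher.

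All 15 interferon-induced GTPases were higher as well (median 3.32), with a summed level of 673.0 to 929.9 FPKM in M1 → M2 and 32.03 to 32.32 FPKM in M2 libraries. Gbp2, which attacks vacuoles that hold pathogens and whose promoter is printed above, had 369, 506 and 488 FPKM in M1 → M2 libraries, against 6.72, 2.84 and 3.52 FPKM in M2 libraries (log2 fold change 6.46 ± 0.49, adjusted p = 6.94e-22). Gbp4 had 26, 39.4 and 39.9 FPKM, against 0.00226, 0.0199 and 0.0741 FPKM in M2 libraries, and Gbp3 (4.52 ± 0.38) and Iigp1 (3.98 ± 0.41) were higher too. Every GTPase separated the groups without overlap. Members of the Gbp, Oas and H2 families are similar in sequence and can share reads, so the split between members is uncertain.

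Inflammatory cytokines and chemokines did not move as 1 group, with 10 of 22 higher, 2 lower and a median of 0.88, against 33.8% higher over all genes. Ccl5, a chemokine that draws T cells, showed the largest increase of any gene that met the rule, with 5203, 3231 and 3739 FPKM in M1 → M2 libraries, against 3.33, 1.47 and 3.16 FPKM in M2 libraries (log2 fold change 10.13 ± 0.6, adjusted p = 1.04e-28). Cxcl9, a ligand of CXCR3, had 251, 258 and 344 FPKM in M1 → M2 libraries and 0.259, 0.0746 and 0.401 FPKM in M2 libraries (log2 fold change 7.84 ± 0.55, adjusted p = 5.22e-24). Both were also high in M1 → M0 cells (4778 ± 1008 and 295 ± 80.8 FPKM). Cxcl10, which binds the same receptor, was by contrast low in both groups, with 3.53, 3.11 and 6.04 FPKM in M1 → M2 libraries and 0.657, 0.303 and 0.976 FPKM in M2 libraries (log2 fold change 1.65 ± 0.52), against 1619, 606 and 1145 FPKM in 24 h M1 libraries. The monocyte attractants were higher and were raised by IL-4 in both kinds of cell. Ccl2 had 2419, 1821 and 2044 FPKM in M1 → M2 libraries, against 186, 646 and 479.8 FPKM in M2 libraries (log2 fold change 2.42 ± 0.35, adjusted p = 5.26e-09). Ccl7 (2.48 ± 0.52) and Ccl12 (2.86 ± 0.73) followed it, and M2 replicate 1 was the lowest library for all 3. Ccl3 and Ccl4, chemokines that draw leukocytes, were the lower members. Ccl3 had 8.93, 12.7 and 11.9 FPKM in M1 → M2 libraries, against 36.1, 49.5 and 64.3 FPKM in M2 libraries (log2 fold change -2.04 ± 0.35), and Ccl4 changed by -1.63 ± 0.39.

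The cytokines most often used to mark M1 cells were low at 12 h. Tnf had 14.1, 11 and 12.8 FPKM in M1 → M2 libraries and 4.58, 4.68 and 4.69 FPKM in M2 libraries (log2 fold change 1.27 ± 0.5, adjusted p = 0.0245), without overlap, but its call was lost when any replicate was left out (adjusted p 0.06 to 0.109). Il1b had 0.672, 0.336 and 0.915 FPKM and 1.13, 0.84 and 0.662 FPKM (adjusted p = 0.835), and the groups overlapped. Il6 had 1.49, 0.0522 and 0.156 FPKM in M1 → M2 libraries and 0.122, 0 and 0.00534 FPKM in M2 libraries (adjusted p = 0.476). Il12b, a subunit of IL-12, had 1.5, 0.559 and 1.02 FPKM in M1 → M2 libraries, against 0.0803, 0 and 0.0418 FPKM in M2 libraries (adjusted p = 0.103), and passed with a pseudocount of 0.1 FPKM (adjusted p = 0.00036).

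Of 21 measured M1 effectors 13 were higher and 8 were not called, with a median of 1.24. Nos2, inducible nitric oxide synthase, had 37, 25.4 and 29.7 FPKM in M1 → M2 libraries, against 0.148, 0.0365 and 0.6 FPKM in M2 libraries (log2 fold change 4.66 ± 0.36, adjusted p = 4.8e-21), and its level had been 741, 519 and 613 FPKM in 24 h M1 libraries. Irg1, which makes itaconate, had 61.6, 33.7 and 40.4 FPKM in M1 → M2 libraries, against 2.31, 0.285 and 0.54 FPKM in M2 libraries (log2 fold change 4.58 ± 0.78, adjusted p = 3.71e-07). Saa3, an acute phase protein, had 2148, 3705 and 2561 FPKM in M1 → M2 libraries and 6.78, 34.3 and 5.62 FPKM in M2 libraries (log2 fold change 7.81 ± 0.6, adjusted p = 3.47e-21). Marco, a scavenger receptor (4.59 ± 0.47), Cd86, a costimulatory ligand (3.58 ± 0.3), Cd38, an NAD-consuming ectoenzyme (2.01 ± 0.35), and Ptgs2, cyclooxygenase 2 (2.35 ± 0.6), were higher too. Nos2 and Arg1, which use the same substrate, were thus both expressed in the M1 → M2 cultures, at a mean of 30.7 ± 5.87 FPKM and 1821 ± 127 FPKM (SD, n = 3). Whether single cells held both cannot be read from bulk libraries.

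Antigen presentation genes were higher in M1 → M2 cells, 11 of 16 for MHC class I (1 lower, median 0.86) and 6 of 7 for MHC class II (1 not called, median 1.54). B2m, the class I light chain, had 8216, 6674 and 8337 FPKM in M1 → M2 libraries, against 1456, 1369.8 and 1224 FPKM in M2 libraries (log2 fold change 2.52 ± 0.16, adjusted p = 5.89e-26), and H2-K1 was higher by 2.53 ± 0.12. H2-D1, at 0 in M1 → M2 replicate 2, had 1680 and 1651 FPKM in the other replicates, against 368, 439 and 428 FPKM in M2 libraries, and was higher by 2.02 (adjusted p = 1.23e-16) when that zero was taken as missing. Tapbpl (2.53 ± 0.16), Tap1 (2.18 ± 0.25) and Tapbp (2.04 ± 0.16), which load peptides onto class I, were higher, and the chaperone Calr was lower (-0.45 ± 0.18), a call lost in some alternatives. In class II, H2-Ab1 had 153, 134 and 119 FPKM in M1 → M2 libraries, against 28.8, 27.1 and 22 FPKM in M2 libraries (log2 fold change 2.34 ± 0.34, adjusted p = 6.26e-09), and Cd74, the invariant chain, changed by 1.73 ± 0.37. At 12 h limma called an IL-4 effect for 0 of the 7 class II genes in pretreated and in naive cells (0 also at an unadjusted p below 0.05). H2-Ab1 stood at -0.11 and -0.25. H2-Aa, H2-Ab1, H2-Eb1 and Cd74 were, however, among the genes that 24 h of IL-4 raised at least 2-fold over 24 h M0. At 24 h after IL-4, 2 of the 7 were higher in M1 → M2 than in M2 cells, 1 was lower and 4 were not called (median -0.11).

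Sensors and signalling genes moved less. Over all genes 33.8% were higher and 22% lower, and a count near these shares does not set a family apart. Of 17 NF-κB, STAT and related factors 9 were higher and 8 not called (median 0.57), among them Stat2 (1.99 ± 0.22), Cebpb (1.48 ± 0.34) and Irf1 (1.09 ± 0.32). Nfkb1 had 59.7, 62.8 and 49.3 FPKM in M1 → M2 libraries and 70.7, 79.5 and 77.1 FPKM in M2 libraries (adjusted p = 0.0607), and it was called lower after quantile normalisation (adjusted p = 0.0155). Hif1a did not pass (0.09 ± 0.17). Of 14 Toll-like receptors and associated genes 6 were higher and 8 not called (median 0.38), with Tlr9, a sensor of DNA (2.69 ± 0.29), Tlr13, a sensor of bacterial ribosomal RNA (1.68 ± 0.14), Ticam1, the adaptor TRIF (1.59 ± 0.16), and Tlr4 (0.95 ± 0.19) in the lead. Of 5 Fc γ receptor genes 3 were higher, with 97.4, 143 and 152 FPKM in M1 → M2 libraries, against 8.2, 17.2 and 15.6 FPKM in M2 libraries, for Fcgr1 (log2 fold change 3.2 ± 0.44, adjusted p = 1.16e-09). Of 8 chemokine receptors 3 were higher and 1 lower. The lower one was Ccr2, the receptor of Ccl2 (1.36, 2.51 and 1.5 FPKM in M1 → M2 libraries and 15.3, 7.96 and 5.64 FPKM in M2 libraries, log2 fold change -1.85 ± 0.34).

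**Figure D4:**
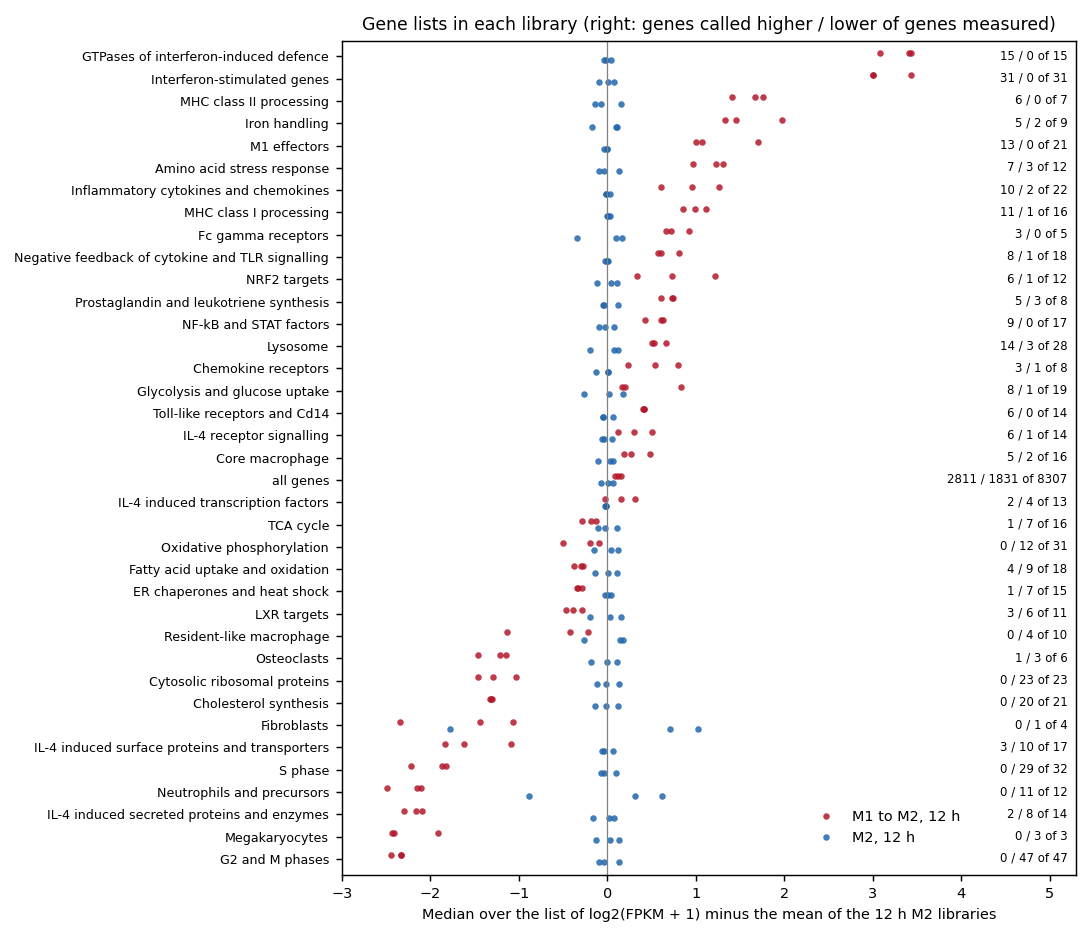
Median level of each gene list in each of the 6 libraries, as log2(FPKM + 1) minus the mean of the 12 h M2 libraries on the horizontal axis, M1 → M2 and M2 dots in different colours, with the numbers called higher and lower of those measured at the right. Interferon-stimulated genes and GTPases (medians 3.15 and 3.32) lie to the right, and cell cycle, cholesterol synthesis and ribosomal protein genes (-2.39 for G2 and M phases, -1.33 and -1.27) lie to the left.

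Cholesterol synthesis was the metabolic pathway that set the groups apart most evenly. Of 21 measured enzymes 20 were lower in M1 → M2 cells and 1 was not called (median -1.33), and their sum was 240.5 to 261.5 FPKM in M1 → M2 libraries, against 633.5 to 748.7 FPKM in M2 libraries. Idi1, which isomerises isopentenyl diphosphate, had 1.85, 1.85 and 2.45 FPKM in M1 → M2 libraries, against 30.4, 26.8 and 24.4 FPKM in M2 libraries (log2 fold change -3.21 ± 0.3, adjusted p = 2.09e-16). Fdps (-3.14 ± 0.22) and Cyp51 (-2.95 ± 0.23) were lower too, and Fdft1, at 0 in M1 → M2 replicate 2, changed by -0.99 (adjusted p = 5.82e-07) with that zero taken as missing. The IL-4 effects differed. In naive cells 19 of the 21 were raised, and in pretreated cells limma called 2 lower and 0 higher (0 higher also at an unadjusted p below 0.05), and the difference passed for 15 of the 21, all smaller in pretreated cells (9 with 24 h M0 as the naive control). For Idi1 the effect was -0.12 in pretreated and 1.59 in naive cells (difference -1.71 ± 0.43, adjusted p = 0.00388, or -1.02, adjusted p = 0.11, with 24 h M0). Fasn, fatty acid synthase, followed the same course (-2.44 ± 0.19 between the groups, IL-4 effect -0.11 and 1.4, adjusted p of the difference 2.33e-05). Among 11 LXR targets, genes of cholesterol export and lipid synthesis, 6 were lower and 3 higher. Apoe had 1401, 2086 and 1627 FPKM in M1 → M2 libraries and 5182, 4866 and 5977 FPKM in M2 libraries (log2 fold change -1.66 ± 0.39), and Mylip, which degrades the LDL receptor, was higher (1.82 ± 0.25).

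Mitochondrial genes differed by less. Of 31 oxidative phosphorylation genes 12 were lower and 19 not called, against 22% lower over all genes (median -0.26; 17 lower under either other scaling). Without M1 → M2 replicate 1 the median was -0.16 and 9 were lower. Of 16 TCA cycle genes 7 were lower and 1 higher (median -0.22). Fh1, fumarase, had 12.5, 13.3 and 11.5 FPKM in M1 → M2 libraries, against 36.2, 39.9 and 42.6 FPKM in M2 libraries (log2 fold change -1.59 ± 0.15, adjusted p = 2.48e-16), Idh2 changed by -1.65 ± 0.24 and Atp5a1 by -0.73 ± 0.14. Sdhd, a subunit of succinate dehydrogenase, was the higher member (0.29 ± 0.1), a call that neither other scaling kept. Of 18 fatty acid uptake and oxidation genes 9 were lower and 4 higher, with Lpl, lipoprotein lipase, at 473, 904 and 600.1 FPKM in M1 → M2 libraries and 1794, 2133 and 2089.8 FPKM in M2 libraries (log2 fold change -1.65 ± 0.25) and Fabp5 higher (1.34 ± 0.42). Of 19 genes of glycolysis and glucose uptake 8 were higher, 1 lower and 10 not called, against 33.8% higher over all genes. Their median was 0.43, but without M1 → M2 replicate 1 it was 0.16, near that of all genes, with 6 higher. Slc16a3, the lactate exporter, had 154, 56.1 and 60.04 FPKM in M1 → M2 libraries, against 8.48, 18.4 and 15.3 FPKM in M2 libraries (log2 fold change 2.5 ± 0.33, adjusted p = 3.16e-10), with M1 → M2 replicate 1 far above the others. Pfkfb3 (1.75 ± 0.22), Hk3 (1.55 ± 0.2) and the glucose transporter Slc2a1 (1.4 ± 0.32) were higher, and Pdk1 was lower (-0.92 ± 0.25).

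All 23 measured cytosolic ribosomal protein genes were lower in M1 → M2 cells (median -1.27), with a sum of 3678 to 4662 FPKM, against 8569 to 10160 FPKM in M2 libraries. Rpl3 had 39.6, 56 and 50.02 FPKM in M1 → M2 libraries, against 225, 219.6 and 246 FPKM in M2 libraries (log2 fold change -2.24 ± 0.18, adjusted p = 5.48e-20), and Rpl10a changed by -2.04 ± 0.21. Ribosomal protein genes have many near-identical pseudogenes, so their levels are uncertain. In pretreated cells limma called an IL-4 effect in 0 of the 23 (0 also at an unadjusted p below 0.05), against 11.8% of all genes, and in naive cells 10 of the 23 were higher. The difference of these effects was called for 1 of the 23, so that a difference between pretreated and naive cells was not shown for the others.

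Proliferation genes were much lower. All 47 G2 and M phase genes (median -2.39) and 29 of 32 S phase genes (median -1.93) were lower in M1 → M2 cells. The G2 and M phase genes summed to 66.99 to 83.5 FPKM in M1 → M2 libraries, against 538.0 to 631.3 FPKM in M2 libraries. Top2a, DNA topoisomerase II, had 0.855, 1.4 and 1.32 FPKM in M1 → M2 libraries, against 41.4, 36.8 and 43.9 FPKM in M2 libraries (log2 fold change -4.26 ± 0.34, adjusted p = 4.06e-20). Mki67 (-3.52 ± 0.32), Birc5, encoding survivin (-4.02 ± 0.36), and, for DNA replication, Rrm2 (-4.21 ± 0.33), Mcm7 (-3.73 ± 0.28) and Mcm5 (-3.27 ± 0.32) followed. The levels were also low in M1 → M0 cells, with 1.88 ± 0.373 FPKM for Top2a and 53.4 ± 3.16 FPKM in 0 h M0 cells, and limma called an IL-4 effect in 0 of the 47 in pretreated cells (2 at an unadjusted p below 0.05, both lower). In naive cells 17 of the 47 were lower in 12 h M2 than in 0 h M0 libraries, and the difference of the effects was called for 1. With 24 h M0 as the naive control the difference was called for 17 of the 47, all higher in pretreated cells. In bulk libraries, fewer cells of a kind and less RNA per cell cannot be told apart.

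Stress genes and iron genes changed in both directions. Among 12 genes of the amino acid stress response 7 were higher and 3 lower (median 1.17). Ddit3, the stress factor CHOP, had 188, 164 and 175 FPKM in M1 → M2 libraries, against 19.9, 19.5 and 23.6 FPKM in M2 libraries (log2 fold change 3.01 ± 0.23, adjusted p = 9.92e-22), and Trib3 (3.39 ± 0.42), Atf4 (1.67 ± 0.15) and Slc3a2 (1.58 ± 0.15) were higher, while Phgdh (-1.78 ± 0.31) and Psat1 (-1.41 ± 0.25), enzymes of serine synthesis, were lower. ER chaperones did not follow, with 7 of 15 lower and 1 higher, Hspa8 at -2.13 ± 0.21 and Hsp90b1 at -1.01 ± 0.13. Of 12 NRF2 targets 6 were higher and 1 lower, the lower one being Ftl1 with its zero in M1 → M2 replicate 2 (0.65 higher, adjusted p = 0.0322, with the zero taken as missing). Hmox1, heme oxygenase 1, had 1615, 1215 and 1265 FPKM in M1 → M2 libraries, against 140.4, 212 and 261 FPKM in M2 libraries (log2 fold change 2.77 ± 0.34, adjusted p = 9.13e-12). Of 9 iron handling genes 5 were higher, 2 lower and 2 not called (median 1.27), the lower ones being Tfrc and Ftl1. Slc11a1, the phagosomal metal transporter NRAMP1, had 489, 548 and 595 FPKM, against 92.9, 83.6 and 98.9 FPKM in M2 libraries (log2 fold change 2.55 ± 0.15, adjusted p = 1.09e-29), and the iron exporter Slc40a1 changed by 1.83 ± 0.24, while Tfrc, which imports iron, was lower.

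Of 28 lysosomal genes 14 were higher and 3 lower (median 0.50). Ctsh, cathepsin H, had 479, 626 and 602 FPKM in M1 → M2 libraries, against 48.1, 57.6 and 62 FPKM in M2 libraries (log2 fold change 3.32 ± 0.18, adjusted p = 1.97e-32), and Ctsc (2.86 ± 0.29), Npc2, a carrier of cholesterol (2.1 ± 0.12), and Ctss (1.54 ± 0.14) were higher. Of the 3 lower calls, Ctsb and Psap rested on their zero in M1 → M2 replicate 2. With it taken as missing Psap was higher (1.18, adjusted p = 1.67e-06) and Ctsb was not called (0.62, adjusted p = 0.0544), while Fth1 (2.07, adjusted p = 2.22e-13) and Gpnmb (0.86, adjusted p = 9.07e-05) were higher. Of 8 genes of prostaglandin and leukotriene synthesis 5 were higher, Ptgs2 (2.35 ± 0.6) and Ptges (1.55 ± 0.31) in front, and 3 were lower, among them Ptgs1, cyclooxygenase 1 (-1.42 ± 0.31), and Tbxas1 (-0.99 ± 0.25).

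Markers of the labelled cell type were present in both groups. Of 16 measured core macrophage genes 5 were higher, 2 lower and 9 not called, against 33.8% higher and 22% lower over all genes. The sum of the 16 was 7019 to 7714 FPKM in M1 → M2 and 8423 to 8558 FPKM in M2 libraries. Lyz2, lysozyme, had 2046, 1798 and 1619 FPKM in M1 → M2 libraries and 4001, 3185 and 3032 FPKM in M2 libraries (log2 fold change -0.9 ± 0.15), and Mpeg1, perforin-2, changed by 1.7 ± 0.13. Markers of neutrophils, megakaryocytes and B cells moved with the groups. Of 12 measured genes of neutrophils and their precursors 11 were lower in M1 → M2 cells and 1 was not called (median -2.15), and their sum was 18.29 to 32.86 FPKM in M1 → M2 libraries, against 150.7 to 544.8 FPKM in M2 libraries. S100a9 and Retnlg were listed at 0 in every M1 → M2 library, against 19.9, 174 and 156 FPKM and 1.07, 18.3 and 15.6 FPKM in M2 libraries, of which replicate 1 was the lowest. Mpo, Elane, Prtn3, Camp and Ngp were each at or below 0.142 FPKM in M1 → M2 libraries. All 3 megakaryocyte genes were lower, with Ppbp at 2.57, 0.815 and 2.2 FPKM in M1 → M2 libraries, against 22.6, 25.8 and 27.8 FPKM in M2 libraries. Ighm, the 1 measured B cell gene, had 0.0993, 0.271 and 0.532 FPKM in M1 → M2 libraries, against 17.2, 25.2 and 25.8 FPKM in M2 libraries (log2 fold change -4.18 ± 0.27, adjusted p = 3.54e-26). The lists of other cells did not all follow. Of 6 osteoclast genes 3 were lower and 1 higher, and of 4 fibroblast genes 1 was lower and 3 were not called. Of 2 endothelial genes 1 was higher and 1 not called, and the 1 measured dendritic cell gene was not called. No gene of the lists for T and NK cells, erythroid cells or mast cells was among the genes measured. The part of neutrophils, megakaryocytes and B cells in the gene groups that were lower in M1 → M2 cultures was not tested.

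Several of the largest differences of IL-4 effects were in neutrophil and monocyte genes. Elane (4.48), Prtn3 (4.4), Ngp (4.06), Camp (3.84) and Mpo (3.82), all products of neutrophil granules, and Ly6c2 (4.44), a monocyte antigen, had positive differences, and all of them fell in naive cultures, 12 h M2 against 0 h M0. Elane, Prtn3, Ngp, Camp and Mpo were near 0 in both pretreated groups. Elane was at 45.4, 40.5 and 40.6 FPKM in 0 h M0 libraries, against 0.328, 0.932 and 1.33 FPKM in 12 h M2 libraries. It was at 0.381 ± 0.334 FPKM in 24 h M0 libraries (SD, n = 3), which received no IL-4. Of the 12 neutrophil genes limma called 9 lower in 24 h M0 than in 0 h M0 libraries, against 84 of all 8307 genes. With 24 h M0 as the naive control each of these 6 differences was between -0.51 and -0.03.

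The comparison changed with the time after IL-4. At 4 h 5355 genes (64.5%) were called between M1 → M2 and M2 cells, and at 24 h 4477 (53.9%), by the same fit in libraries that the 12 h comparison does not use. The 12 h difference itself departed from that at 4 h in 1827 genes (22%), 951 more positive (11.4%) and 876 less (10.5%) at 12 h, and from that at 24 h in 232 genes (2.79%), 183 more positive (2.2%) and 49 less (0.59%) at 12 h. M1 → M2 libraries were 0.142 ± 0.00475 from the mean M2 profile of 4 h by Jensen-Shannon distance, and the same distance within the 24 h groups was 0.112 ± 0.00363 (SD, n = 3), on either side of the value for 12 h.

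The levels of interferon genes in M1 → M2 cells changed with the time after IL-4, which is also the time since LPS and IFN-γ were washed out. Gbp2 had 3298, 2881 and 2768 FPKM in 24 h M1 libraries. In 12 h M1 → M0 libraries, which received no IL-4, it had 256, 463 and 344 FPKM. Gbp2 averaged 3354 ± 107 FPKM at 1 h, 2509.6 ± 179 FPKM at 4 h, 454 ± 74.7 FPKM at 12 h and 48.7 ± 13 FPKM at 24 h in M1 → M2 cells, and between 4.01 ± 1.71 FPKM at 6 h and 8.68 ± 2.41 FPKM at 24 h in M2 cells (SD, n = 3). Its difference was larger at 12 h than at 24 h by 4.11 ± 0.69, adjusted p = 1.82e-05. Mx1 (2.88), Gbp3 (2.85) and Ly6a (2.66) were also more positive at 12 h than at 24 h, and Iigp1 (-3.97), Cxcl10 (-3.81) and Trim30c (-3.8) were less positive at 12 h than at 4 h. Glul (2.92), Filip1l (2.73), Gadd45a (2.51) and Id1 (2.5) were more positive at 12 h than at 4 h.

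IL-4 genes took different courses. Chi3l3 had 0.454 ± 0.0616, 71 ± 30.4, 469 ± 154 and 1091 ± 382 FPKM at 1, 4, 12 and 24 h in M1 → M2 cells, against 117 ± 42.4, 210.2 ± 53.8, 502 ± 98.3 and 1323 ± 252 FPKM in M2 cells (SD, n = 3), so that the means lay within 1 SD of each other at 12 h and 24 h. Arg1 had 196 ± 26.3, 786 ± 94.4, 1821 ± 127 and 1206 ± 114 FPKM in M1 → M2 cells, against 19.8 ± 6.13, 1095 ± 173, 2441 ± 465 and 2639 ± 357 FPKM in M2 cells. It was above M2 at 1 h and below it from 4 h on by its means. Mrc1 had 24.8 ± 11.8, 149 ± 53.3 and 141 ± 47.8 FPKM at 4, 12 and 24 h in M1 → M2 cells, against 560.1 ± 77.1, 696 ± 81 and 361 ± 96 FPKM in M2 cells, and its difference was smaller at 12 h than at 4 h by 2.28 ± 0.67, adjusted p = 0.00734. Retnla stayed apart, with 0.933 ± 0.658, 26.1 ± 39.5 and 3.97 ± 1.99 FPKM in M1 → M2 cells, against 125 ± 33.8, 1673 ± 162 and 5860.2 ± 399 FPKM in M2 cells. The M1 → M2 mean of Retnla at 12 h rests on replicate 1 (71.7, 3.93 and 2.71 FPKM). Il4ra had 159 ± 55.6, 113 ± 24.6, 83 ± 8.91 and 37.7 ± 3.15 FPKM at 1, 4, 12 and 24 h in M1 → M2 cells, against 26.9 ± 2.78, 80.9 ± 19.6, 13.8 ± 2.97 and 11.4 ± 1.39 FPKM in M2 cells. Its mean was thus lower at each later time in M1 → M2 cells, and in M2 cells it was highest at 4 h among these times. Hmgcs1, an early enzyme of cholesterol synthesis, lay between 9.98 ± 0.806 and 13.4 ± 1.46 FPKM at every time in M1 → M2 cells, while in M2 cells it was 24.1 ± 14.6 FPKM at 1 h and 59 ± 2.29 FPKM at 12 h.

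**Figure D5:**
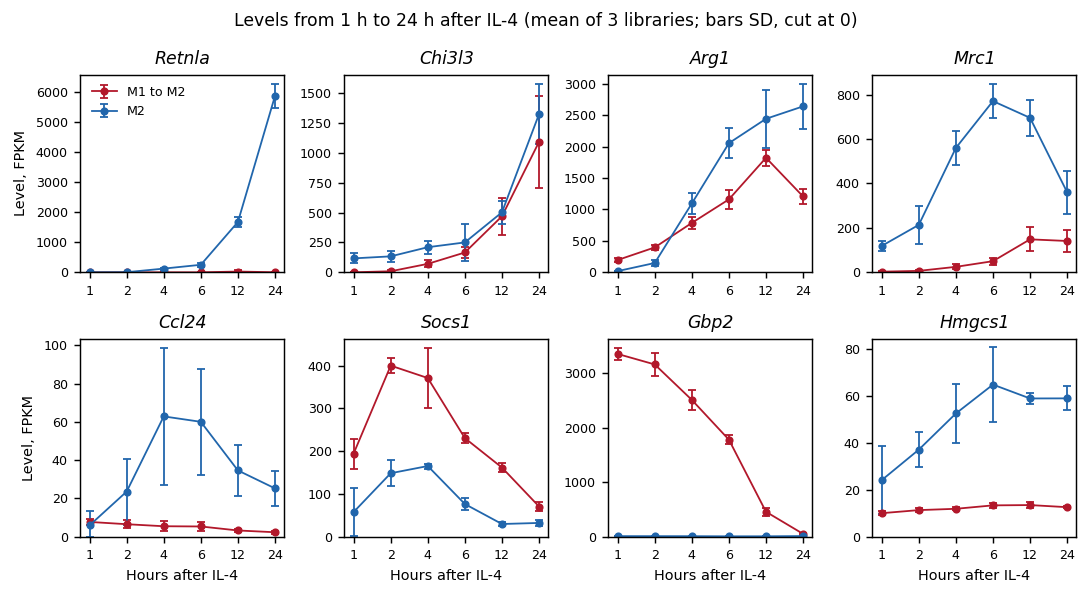
Mean FPKM ± SD (n = 3 libraries) of 8 genes against hours after IL-4 (1 to 24 h), M1 → M2 and M2 as separate lines. The lines of Chi3l3 come together by 12 h, those of Retnla stay apart, Gbp2 declines in M1 → M2 cells toward its M2 level, and Hmgcs1 stays flat in M1 → M2 cells.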

How the data were processed

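RNA of the 145 bulk libraries was sequenced with an unstranded kit. The authors aligned reads to mm10 (TopHat2 2.0.14), computed FPKM (Cuffnorm 2.2.2), kept genes reaching 10 FPKM and deposited log10 values, here log10(FPKM + 1) for 8307 genes. The lowest maximum of any gene was 10.09 FPKM. The authors' test needs reads, so limma 3.58.1 (R 4.3.3) was run instead on log2(FPKM + 1), with 1 mean for each of the 48 groups, a mean-variance trend, the spread shared over all 145 libraries, and Benjamini-Hochberg adjustment over all genes at 0.05. A pseudocount of 1 understates changes of low genes.

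Genes named in the text were the 15 largest changes in each direction (called, mean of at least 20 FPKM in 1 group, no overlap), up to 5 called members per list with up to 2 opposed, fixed classical markers, and the 8 and 5 largest differences between IL-4 effects and between times. Members and lists were chosen with earlier results of these data known. Same-numbered replicates correlated at 0.314, 0.0395 and 0.00294 between M1 → M2 and M2, so these groups were not taken as paired. They correlated at 0.404 to 0.605 between M1 → M2 and M1 → M0 and at 0.384 to 0.615 between M2 and 0 h M0, which is why the block is given for the difference of IL-4 effects.

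Data were simulated for the main comparison (8307 genes, 50 changed at each size, noise independent between genes). The fit found 62, 86, 98 and 100% of genes changed by 0.585, 1, 2 and 3 on the log2 scale, with 10 false calls. The changed genes were drawn from those above 10 FPKM in M2 cells, and they were far fewer than the genes called in the data. These rates therefore do not describe lower genes or the real comparison as a whole. Alternatives were another pseudocount, a filter on low values, other scalings, fewer libraries, no trend, the block, another naive control and left-out replicates, with zeros taken as missing added after the data were seen. Figures were drawn with matplotlib 3.10.9. Chromatin accessibility and single-cell files were not used here.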

Additional observations from a re-analysis of the deposited data

Results flagged for a closer look

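IL-4 effects differed between pretreated and naive cells in 791 genes by limma's test of the difference. The difference, pretreated minus naive, was positive for Chi3l3 (4.96), Elane (4.48), Ly6c2 (4.44), Prtn3 (4.40), Ngp (4.06), Camp (3.84), Mpo (3.82), Hp (3.47), Mrc1 (2.30), Egr2 (2.21), Socs3 (2.11), Il4ra (1.85), Cd38 (1.78) and Jak3 (1.10), all as differences of log2 effects. With 24 h M0 as the naive control it was 0.66 for Chi3l3 (adjusted p = 0.514) and 0.29 for Hp (adjusted p = 0.729), and between -0.51 and -0.03 for Elane, Ly6c2, Prtn3, Ngp, Camp and Mpo. The difference was negative for Retnla (-8.06), Ear11 (-3.88), Ccl24 (-3.87), Arg1 (-3.16), Mgl2 (-3.03), Ccl22 (-2.75) and Irf4 (-2.24), and, with a zero in M1 → M2 replicate 2, Ftl1 (-3.92), Psap (-3.92), Gpnmb (-3.69) and H2-D1 (-3.24).

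The difference between M1 → M2 and M2 cells at 12 h departed from that at 4 h in 1827 genes. It was more positive at 12 h for Glul (2.92), Filip1l (2.73), Gadd45a (2.51), Id1 (2.5) and Mrc1 (2.28), and less for Iigp1 (-3.97), Cxcl10 (-3.81), Trim30c (-3.8) and, with the zero, Psap (-4.21) and Ftl1 (-3.94). It departed from that at 24 h in 232 genes. It was more positive at 12 h for Gbp2 (4.11), Ear11 (2.96), Mx1 (2.88), Gbp3 (2.85) and Ly6a (2.66), and less for Stap1 (-1.77), Ybx3 (-1.28), Bcap29 (-1.06), Fabp7 (-1.03) and, with the zero, Gpnmb (-3.78).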

How the results depend on the processing

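The count of 4642 genes called between M1 → M2 and M2 cells was 3819 to 5278 under the alternatives other than left-out replicates and 3784 to 4307 with replicates left out. Of 3513 values recomputed for the named genes, 3414 kept direction and side of the threshold, 80 lost it, 10 gained it and 9 reversed. For the difference of IL-4 effects it was 819, 32, 4 and 18 of 873. With the replicate block 1508 genes were called for that difference and 459 for 12 h minus 24 h, where the block rests on numbers alone. With replicates left out the counts were 226 to 701 for the difference of IL-4 effects, 1162 to 1709 for 12 h minus 4 h, 54 to 196 for 12 h minus 24 h, 614 to 979 for the IL-4 effect in pretreated and 2067 to 3171 in naive cells, with fewer libraries in each. On linear FPKM the Jensen-Shannon distance of M1 → M2 libraries was 0.193 to 12 h M1 → M0 (0.141 to 0.283). It was 0.272 to 24 h M1 (0.234 to 0.333) and 0.314 to 12 h M2 (0.304 to 0.323). The means kept their order, but the ranges for 24 h M1 and 12 h M2 overlapped. With 24 h M0 as the naive control the difference of IL-4 effects reversed for Elane (-0.51), Ngp (-0.43), Camp (-0.29), Ly6c2 (-0.16), Mpo (-0.083) and Prtn3 (-0.027), and the cause was not tested.

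Other reversals were in genes that M1 → M2 replicate 2 lists at 0. Taking zeros as missing, or leaving that library out, gave 0.62 for Ctsb, 0.65 for Ftl1 and 1.18 for Psap between the groups, 0.26 for Ftl1, 0.26 for Gpnmb, 0.33 for H2-D1 and 0.35 for Psap in the difference of IL-4 effects, 0.25 for Ftl1 and 0.066 for Psap in 12 h minus 4 h, and 0.18 for Gpnmb in 12 h minus 24 h. Over all left-out replicates the ranges were -5.19 to 0.70 (Ctsb), -5.75 to 0.65 (Ftl1) and -5.28 to 1.19 (Psap) between the groups. They were -6.18 to 0.49 (Ftl1), -5.76 to 0.36 (Gpnmb), -5.18 to 0.55 (H2-D1) and -6.15 to 0.45 (Psap) in the difference of IL-4 effects. They were -6.13 to 0.40 (Ftl1) and -6.38 to 0.13 (Psap) in 12 h minus 4 h, and -5.84 to 0.18 (Gpnmb) in 12 h minus 24 h. Without read counts the depth behind low values is unknown.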
